A study of Mus musculus with 13 samples.

Results

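The transcripts described here are those of Gdf15 and of 9 genes of mitochondrial one-carbon metabolism, serine and proline synthesis and their transcription factors: Mthfd2, Mthfd1l, Aldh1l2, Shmt2, Phgdh, Psat1, Atf4, Atf5 and Pycr1. The 10 genes were chosen by name, out of 55471 rows of the deposited gene table, and all 10 were found and passed the filter on low counts. They were measured by bulk RNA-seq of whole mouse hearts in 3 groups. R502W mavacamten (n = 4) came from mice of the R502W model, in which the sarcomere protein cMyBP-C (gene Mybpc3) carries that amino acid change, and received the cardiac myosin inhibitor mavacamten at 2.5 mg/kg/day through the drinking water over 21 weeks. R502W control (n = 4) had the same change without the drug, and WT control (n = 5) had neither. Mice were 24 weeks old according to the design text, although the RNA protocol speaks of 3- and 18-week-old hearts. The sources used here gave no zygosity or sex, and no WT mice on mavacamten were analysed here. Samples are numbered within a group, but nothing states that each was a separate mouse, and p-values reflect only how much the libraries vary.

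Growth differentiation factor 15 is a secreted hormone of the transforming growth factor beta superfamily that stressed cells release and that acts through the receptor GFRAL in the hindbrain. The integrated stress response raises the translation of ATF4, a transcription factor whose targets include enzymes that make serine, proline and folate-bound one-carbon units. In mitochondria, SHMT2 passes a carbon from serine to folate, MTHFD2 oxidises the product, and MTHFD1L or ALDH1L2 releases it as formate or carbon dioxide. In heart and skeletal muscle with mitochondrial dysfunction, Gdf15, Mthfd2 and the serine synthesis genes are known to be induced together. Since ATF4 is controlled in large part at translation, the level of its mRNA is not a reading of its activity.

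Total expected counts per library were 16001651 to 17520706 in R502W mavacamten, 15350622 to 19361103 in R502W control and 15420583 to 18218404 in WT control. Summed markers of ventricular cardiomyocytes (Myl2, Myh6, Tnnt2, Actc1, Ryr2 and Mb) were 51934 to 72914.5 CPM (counts per 1000000 on normalised library sizes) in R502W mavacamten, 56284.7 to 64587 CPM in R502W control and 40589.9 to 56754 CPM in WT control, so heart muscle transcripts were abundant in every library. Libraries differed in tissue of other kinds. The sum of 4 adipocyte markers (Adipoq, Plin1, Cidec and Lep) lay between 247 and 329 CPM in R502W mavacamten replicate 4, R502W control replicate 1 and WT control replicates 2 and 3, against 1.41 to 94.3 CPM in the other 9 libraries. WT control replicate 2 also held 304 CPM of 5 T cell and thymus markers, against at most 4.35 CPM in any other library. Summed cycling cell markers (Mki67, Top2a, Cdk1 and Ccnb1) were 12.4 to 16.2 CPM in R502W mavacamten and 12.8 to 21.4 CPM in R502W control. In WT control they were 88.0 CPM in replicate 2 and 7.70 to 13.9 CPM in the other libraries. None of these 4 genes was called in any comparison. Bmp10, an atrial gene, was low in R502W mavacamten replicate 3 (6.23 CPM), R502W control replicate 1 (1.57 CPM) and WT control replicate 3 (8.33 CPM), against 307 to 672 CPM elsewhere. Summed with Sln, Myl7, Myl4 and Nppa, the atrial markers were at 2988 CPM in R502W mavacamten replicate 3, the lowest of all, but R502W control replicate 1 (5143 CPM) and WT control replicate 3 (6076 CPM) were within the range of 3651 to 8008 CPM of the other libraries. Summed airway markers (Scgb1a1, Cyp2f2 and Sftpc) were 138.6 CPM in R502W mavacamten replicate 1 and 2.45 to 22.2 CPM in the other R502W mavacamten libraries, and 0.28 to 1.45 CPM in R502W control. In WT control they were 353 and 556 CPM in replicates 2 and 3 and 1.39 to 3.45 CPM in the other 3. Scgb1a1 and Cyp2f2 were called lower in R502W control than in WT control. Summed endothelial markers (Pecam1, Cdh5, Kdr and Tie1) were 534 to 740.4 CPM in R502W mavacamten, 700.5 to 827 CPM in R502W control and 455 to 617 CPM in WT control, with no overlap between R502W control and WT control. Of the 4, Kdr was called higher in R502W control than in WT control (0.73 ± 0.15, edgeR adjusted p 0.00929). Ryr2 was the only one called, higher, of the 6 ventricular markers, and Col1a1 of the 5 fibroblast markers (Pdgfra, Dcn, Lum, Col1a1 and Tcf21). In either list only 3 genes had a log2 fold change above 0. Summed fibroblast markers overlapped, at 797.6 to 1011 CPM in R502W mavacamten, 914.6 to 1085.6 CPM in R502W control and 796.7 to 1079.3 CPM in WT control. The part of these other cells in the differences below was not tested.

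The upstream sequences of the 4 genes that passed the test between R502W control and WT control, and of Pycr1, the proline enzyme whose group values also separated with mavacamten, were read from the RefSeq promoter table of GRCm38.p6. They are shown because ATF4 and its partners are known to bind the composite element TGATGNAA in promoters of stress genes. Each run ends at the base before the transcription start, is written 5′ to 3′ on the gene's own strand, and carries in capitals any match to TGATGNAA or to the cyclic AMP response element core TGACGT, on either strand. The second motif was added after the first had been searched.
Gdf15, chr8:70632457-70632706, minus strand: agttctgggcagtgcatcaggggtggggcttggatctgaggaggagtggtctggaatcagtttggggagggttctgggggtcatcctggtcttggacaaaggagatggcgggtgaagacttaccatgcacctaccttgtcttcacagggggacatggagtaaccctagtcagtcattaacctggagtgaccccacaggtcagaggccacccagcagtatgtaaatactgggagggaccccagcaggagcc
Mthfd2, chr6:83317605-83317854, minus strand: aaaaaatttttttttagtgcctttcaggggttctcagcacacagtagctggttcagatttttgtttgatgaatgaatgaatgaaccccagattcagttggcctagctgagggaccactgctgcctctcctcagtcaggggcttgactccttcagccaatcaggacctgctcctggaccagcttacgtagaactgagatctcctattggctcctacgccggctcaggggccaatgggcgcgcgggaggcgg
Mthfd1l, chr10:3972825-3973074, plus strand: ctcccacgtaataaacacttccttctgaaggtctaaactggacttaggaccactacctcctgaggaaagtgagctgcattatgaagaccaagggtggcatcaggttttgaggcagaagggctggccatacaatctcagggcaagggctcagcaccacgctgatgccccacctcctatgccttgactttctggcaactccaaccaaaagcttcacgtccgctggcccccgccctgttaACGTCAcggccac
Atf5, chr7:44816659-44816908, minus strand: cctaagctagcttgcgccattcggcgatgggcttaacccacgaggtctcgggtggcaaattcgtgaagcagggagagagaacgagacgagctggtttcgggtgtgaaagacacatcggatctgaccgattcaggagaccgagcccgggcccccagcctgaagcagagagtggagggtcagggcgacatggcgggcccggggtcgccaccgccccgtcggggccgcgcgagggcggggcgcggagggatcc
Pycr1, chr11:120643749-120643998, minus strand: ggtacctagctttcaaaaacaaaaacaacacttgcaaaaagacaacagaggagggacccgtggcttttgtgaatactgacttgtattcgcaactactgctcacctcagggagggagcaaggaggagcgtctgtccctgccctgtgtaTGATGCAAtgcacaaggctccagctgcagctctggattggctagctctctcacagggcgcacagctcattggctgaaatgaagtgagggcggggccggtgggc
Windows of 300 bases, with 250 before and 50 after the start, were in the table for 9 of the 10 genes, 12 windows in all, while Aldh1l2 had no entry. TGATGNAA, whose reverse complement is TTNCATCA, occurred in 1 of the 12 windows, in Pycr1 at 103 bases before the start. Over all 32851 windows of the table it occurred in 3.97%. TGACGT, whose reverse complement is ACGTCA, also occurred in 1 of the 12, in Mthfd1l at 13 bases before the start, and in 7.51% of all windows. The 2 motifs do not overlap one another in these windows. A match is a run of letters and not a measured binding site. The starts of Mthfd2 and Pycr1 in RefSeq lie within the longer gene spans given by GENCODE M21. Gdf15 and Atf5 had 2 windows each, and only the first is shown.

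In R502W control hearts, Gdf15 and Mthfd2 transcripts were higher than in WT control hearts, 6.19-fold and 3.10-fold. Atf5, which encodes a transcription factor of the mitochondrial stress response, was 1.34-fold higher, and Mthfd1l, the mitochondrial enzyme that releases formate, was 3.06-fold lower. The other 6 genes, among them Atf4, Shmt2, Phgdh and Psat1, did not pass the test. So 3 of the 10 genes rose and 1 fell at an adjusted p under 0.05, by edgeR's quasi-likelihood test with Benjamini-Hochberg adjustment over all 15000 genes tested. Over all genes tested, 8.63% rose and 3.75% fell, 12.4% in either direction. The libraries of R502W control lay wholly above those of WT control for 3 of the 10 genes and wholly below for 0, where 12.3% and 5.45% of all genes did so. The 10 genes were picked with earlier results of these libraries known, so their count is not independent evidence against that background. Their median log2 fold change was 0.09, beside -0.0085 over all genes tested.

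**Figure D1:**
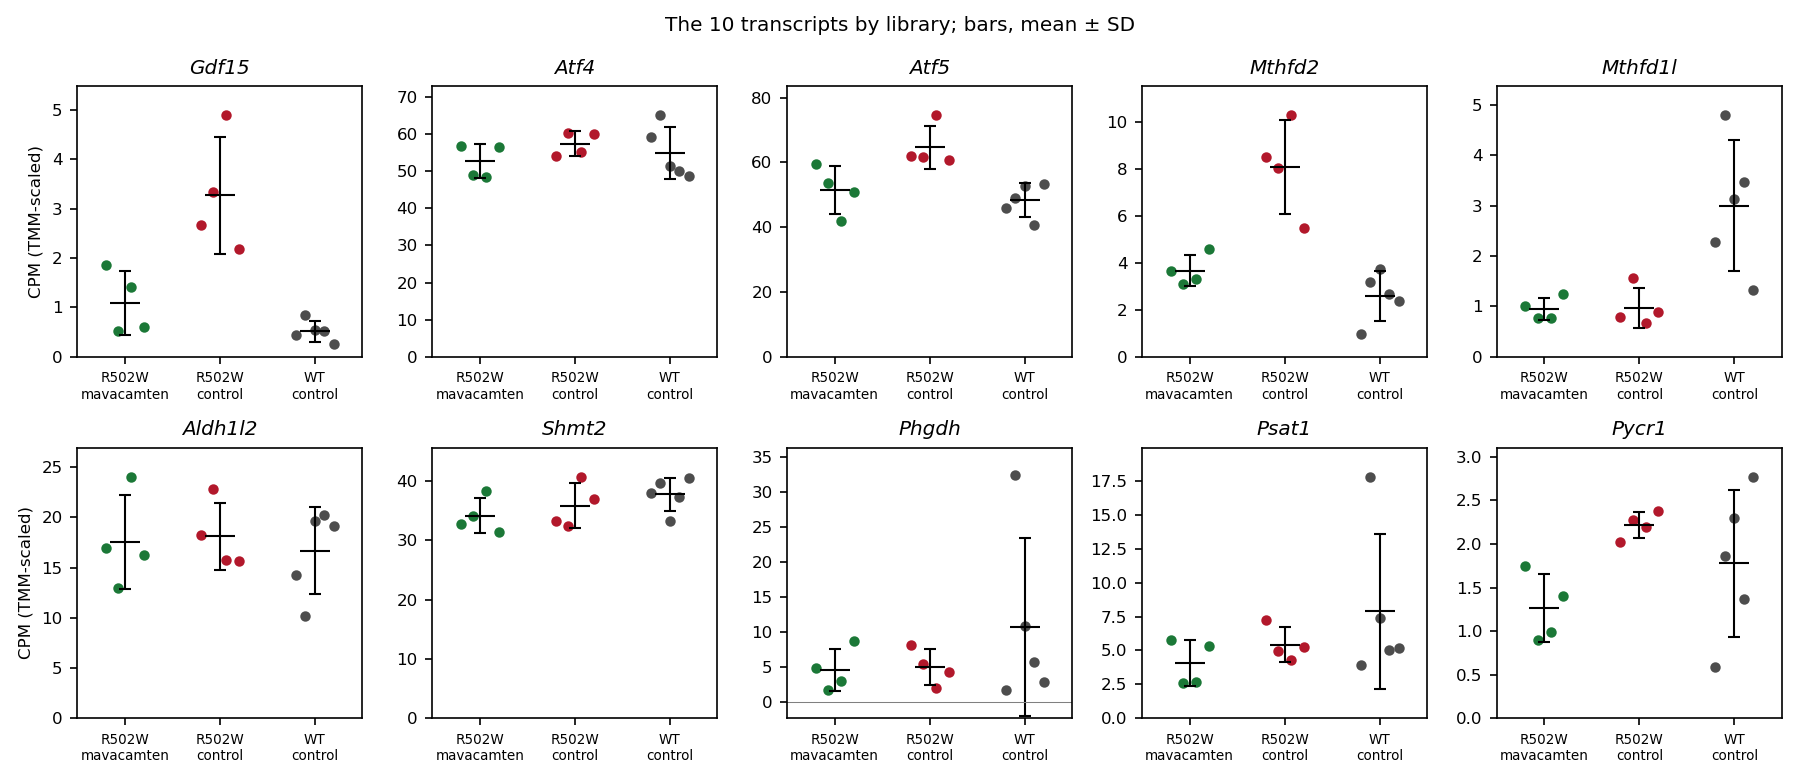
Level of each of the 10 transcripts in every library (vertical axes, CPM on normalised library sizes, each panel with its own linear axis), with the groups in the order R502W mavacamten, R502W control and WT control along the horizontal axis. Points are libraries and bars are the mean and SD of n = 4, 4 and 5; the R502W control points of Gdf15 and Mthfd2 all lie above those of the other groups, and a single WT control library at 32.5 CPM sets the scale of the Phgdh panel.

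Gdf15 (GRCm38 chr8:70629393-70632456, minus strand) had 1.86, 0.51, 1.42 and 0.59 CPM in the 4 R502W mavacamten libraries. It had 2.68, 3.33, 4.89 and 2.18 CPM in the 4 R502W control libraries and 0.44, 0.84, 0.54, 0.52 and 0.25 CPM in the 5 WT control libraries. Every R502W control library was above every library of the other groups, while the R502W mavacamten and WT control values overlapped. These levels rest on few reads: 8 to 33 expected counts in R502W mavacamten, 41 to 87 in R502W control and 4 to 14 in WT control. R502W control exceeded WT control by 2.63 ± 0.43 on the log2 scale (fold change ± SE; 95% interval 1.72 to 3.54, unadjusted), with an edgeR adjusted p of 0.00211. It stayed past the threshold in every one of the 13 fits that left out a library, with log2 fold changes of 2.37 to 2.83. In whole tissue, a change in the number of cells that make a transcript and a change in the transcript per cell cannot be told apart.

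Mthfd2 (chr6:83305691-83325908, minus strand), the dehydrogenase and cyclohydrolase of mitochondrial folate that is low in most adult tissues, had 3.66, 3.09, 3.33 and 4.60 CPM in R502W mavacamten. Its values were 8.49, 8.06, 10.3 and 5.49 CPM in R502W control and 0.95, 3.18, 3.74, 2.68 and 2.39 CPM in WT control. Again the 4 R502W control libraries lay above all others, and the lowest of all was WT control replicate 1. R502W control exceeded WT control by 1.63 ± 0.29 (95% interval 1.01 to 2.26) with an edgeR adjusted p of 0.00396, and 1.40 to 1.80 without any single library. Gdf15 and Mthfd2 were the 2 genes of the 10 whose genotype difference passed the threshold under every alternative tried, leave-one-out fits included.

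Mthfd1l (chr10:3973118-4167081, plus strand) differed in the other direction. It had 1.01, 0.77, 0.78 and 1.24 CPM in R502W mavacamten, 0.78, 1.56, 0.68 and 0.88 CPM in R502W control, and 2.27, 4.80, 3.14, 3.46 and 1.32 CPM in WT control. All 8 R502W libraries were at or below 1.56 CPM, and 4 of the 5 WT control libraries were at or above 2.27 CPM, so that R502W control and WT control overlapped through 1 library of each. Against WT control it fell by 1.62 ± 0.37 on the log2 scale in R502W control (95% interval -2.41 to -0.82, edgeR adjusted p 0.014). In R502W mavacamten it fell by 1.64 ± 0.37 against WT control (95% interval -2.45 to -0.84, edgeR adjusted p 0.0211), with no overlap. Both comparisons use the same WT control libraries and are not independent. Without the 4 libraries of high adipocyte markers, 2 of them WT control, the log2 fold changes were -1.21 (adjusted p 0.102) in R502W control and -1.48 (adjusted p 0.0748) in R502W mavacamten. The R502W control call was also lost without R502W control replicate 3 (-1.47, adjusted p 0.0521), and the R502W mavacamten call without R502W mavacamten replicate 2 or 3 (adjusted p 0.0651 and 0.0616). Without the 3 libraries of low Bmp10 the log2 fold changes were -1.54 in R502W control and -1.55 in R502W mavacamten, with adjusted p-values of 0.095 and 0.125 in that smaller set of libraries.

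Atf5 (chr7:44812256-44816658, minus strand) had 59.6, 53.5, 41.9 and 50.8 CPM in R502W mavacamten, 61.9, 61.6, 74.6 and 60.7 CPM in R502W control, and 45.8, 49.1, 52.8, 40.7 and 53.3 CPM in WT control. The R502W control values again stood above all others, with 74.6 CPM in replicate 3 and 60.7 to 61.9 CPM in the other 3. R502W control exceeded WT control by 0.42 ± 0.11 (95% interval 0.18 to 0.66) with an edgeR adjusted p of 0.0259. That call was lost in 5 of the 13 leave-one-out fits (without WT control 1 or 4, R502W control 2 or 3, or R502W mavacamten 2), while the log2 fold change stayed between 0.35 and 0.46. The spans of Nup62 and Il4i1 on the opposite strand overlap that of Atf5. Nup62, a nuclear pore gene, was at 26.1 to 28.7 CPM in R502W mavacamten, 25.6 to 31.4 CPM in R502W control and 18.8 to 24.7 CPM in WT control. Il4i1 was at most at 2.88 CPM in any library. The libraries were strand-specific, but the sources used here do not say whether the counting used strand. The deposited expected counts of Atf5 were whole numbers in every library. The part of reads from the opposite strand in the Atf5 values was not tested.

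Atf4 (chr15:80255184-80257541, plus strand), the central factor of the response, had 56.7, 48.8, 48.4 and 56.6 CPM in R502W mavacamten, 54.0, 60.3, 55.0 and 60.1 CPM in R502W control, and 59.1, 65.1, 51.2, 50.2 and 48.8 CPM in WT control. The 3 groups overlapped throughout. The difference between R502W control and WT control was 0.06 ± 0.10 on the log2 scale, and its 95% interval of -0.14 to 0.27 bounds a change in Atf4 mRNA more tightly than for any other gene of the set but Shmt2. Shmt2 (chr10:127517123-127522444, minus strand), which loads serine carbon onto folate, averaged 34.2 ± 2.97 CPM in R502W mavacamten, 35.9 ± 3.79 CPM in R502W control and 37.8 ± 2.78 CPM in WT control (SD, n = 4, 4 and 5). Its genotype difference was -0.07 ± 0.09 (95% interval -0.27 to 0.12). Aldh1l2 (chr10:83487450-83534140, minus strand), which oxidises formyl-folate to carbon dioxide, averaged 17.6 ± 4.69 CPM in R502W mavacamten, 18.1 ± 3.34 CPM in R502W control and 16.7 ± 4.34 CPM in WT control. Its difference of 0.12 ± 0.21 (95% interval -0.34 to 0.57) turned sign in several of the alternatives. Shmt2 and Aldh1l2 also overlap genes of the opposite strand, Ndufa4l2 and D10Wsu102e. D10Wsu102e was at 33.5 to 35.4 CPM in R502W mavacamten, 31.4 to 38.3 CPM in R502W control and 23.0 to 33.1 CPM in WT control, above Aldh1l2 itself. Expected counts were whole numbers in every library for Shmt2, but fractional in every library for Aldh1l2 (170.49 to 411.02). Whether the counting used strand is unknown for both, and the part of opposite-strand reads in them was not tested. None of these 3 genes passed the edgeR test, with adjusted p-values of 0.695 for Atf4, 0.623 for Shmt2 and 0.752 for Aldh1l2.

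Pycr1 (chr11:120635712-120643769, minus strand), the mitochondrial enzyme of the last step of proline synthesis, had 1.74, 0.90, 0.99 and 1.41 CPM in R502W mavacamten, 2.02, 2.28, 2.19 and 2.38 CPM in R502W control, and 0.59, 1.86, 2.29, 1.36 and 2.77 CPM in WT control. R502W control was the tightest group and lay inside the wide range of WT control. The reads were few, with 14 to 31 expected counts in R502W mavacamten, 31 to 46 in R502W control and 8 to 44 in WT control. The genotype difference was 0.32 ± 0.35 (95% interval -0.43 to 1.07) and did not pass the test, with an edgeR adjusted p of 0.583.

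**Figure D2:**
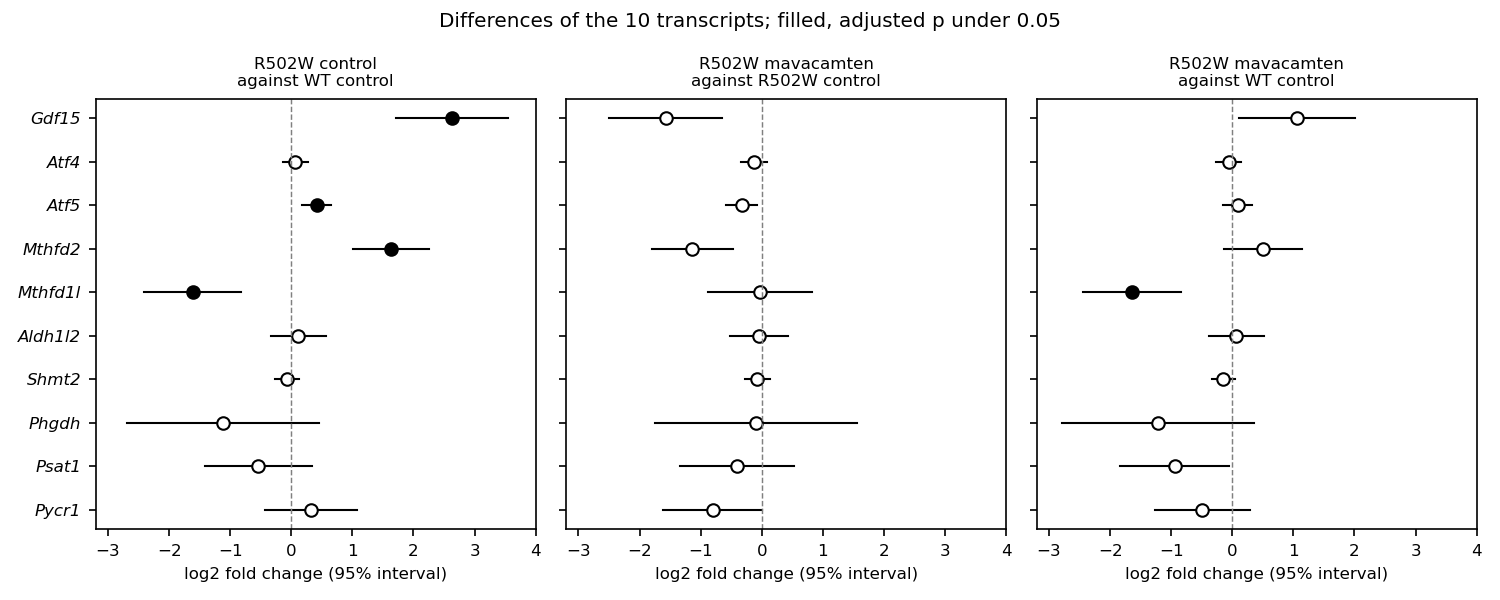
Log2 fold change of each of the 10 transcripts (horizontal axes, edgeR estimate) in the 3 comparisons, with bars for the unadjusted 95% interval. Filled points passed an adjusted p of 0.05: Gdf15, Mthfd2, Atf5 and Mthfd1l in R502W control against WT control, and Mthfd1l in R502W mavacamten against WT control.

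With mavacamten, no transcript of the set passed the test against R502W control, and neither did any of the 15000 genes tested: 0 genes were called and percent called was 0. Without adjustment 525 of the 15000 genes had an edgeR p under 0.05, a smaller share than the 0.05 that arises with no difference at all. DESeq2 called 6 genes, none of them of the set. All 10 log2 fold changes were below 0, with a median of -0.23 beside 0.0036 over all genes tested. Those of Mthfd1l (-0.03), Aldh1l2 (-0.05) and Shmt2 (-0.07) were near 0. The signs of Mthfd1l, Phgdh and Aldh1l2 turned when some single libraries were left out. The 10 genes were picked with earlier results of these libraries known, so their shared sign is not independent evidence of a difference. The values of Gdf15, Mthfd2, Atf5 and Pycr1 were lower in every R502W mavacamten library than in every R502W control library. Over all genes tested, 1.58% showed such a gap downward, 1.29% upward and 2.87% in either direction. The R502W control libraries enter both this comparison and the one with WT control, so the 2 are not independent.

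Gdf15 averaged 1.10 ± 0.65 CPM in R502W mavacamten and 3.27 ± 1.18 CPM in R502W control (SD, n = 4 each), a log2 difference of -1.57 ± 0.43 (95% interval -2.50 to -0.65, unadjusted). Mthfd2 averaged 3.67 ± 0.66 CPM in R502W mavacamten and 8.08 ± 1.98 CPM in R502W control, a log2 difference of -1.13 ± 0.31 (95% interval -1.79 to -0.48). For both genes the interval left out 0 while the edgeR adjusted p over all genes was 1. Atf5 differed by -0.33 ± 0.12 (95% interval -0.58 to -0.08) and Pycr1 by -0.81 ± 0.38 (95% interval -1.61 to 0.0018, which just takes in 0). The intervals of the other 6 genes also spanned 0, and ran from -0.34 to 0.09 for Atf4, from -0.27 to 0.13 for Shmt2, from -0.53 to 0.43 for Aldh1l2, from -0.88 to 0.83 for Mthfd1l, from -1.75 to 1.56 for Phgdh and from -1.34 to 0.53 for Psat1. Mthfd1l, which was low in R502W control, was thus at 0.95 ± 0.22 CPM in R502W mavacamten and 0.97 ± 0.40 CPM in R502W control. Its interval is wide in both directions, so an equal level is not shown.

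Set against WT control, R502W mavacamten hearts differed in Mthfd1l, which fell, and in none of the other 9 genes at an edgeR adjusted p under 0.05. Over all genes tested, 5.93% were higher and 2.29% lower in this comparison, 8.21% in either direction, and the median of the 10 genes was -0.10 beside 0.0022 over all genes tested. The groups were apart for 1 of the 10 genes downward and 0 upward, and for 3.79% and 8.54% of all genes. Gdf15 averaged 1.10 ± 0.65 CPM in R502W mavacamten and 0.52 ± 0.21 CPM in WT control (SD, n = 4 and 5), a log2 difference of 1.06 ± 0.44 (95% interval 0.11 to 2.00, adjusted p 0.15). Mthfd2 differed by 0.50 ± 0.30 (95% interval -0.14 to 1.13, adjusted p 0.315) and Atf5 by 0.09 ± 0.11 (adjusted p 0.644). These p-values do not show that the treated hearts had the WT level. Psat1 differed by -0.94 ± 0.41 (95% interval -1.83 to -0.05, adjusted p 0.169), but by -0.43 without WT control replicate 2 and by -0.38 without the 4 libraries of high adipocyte markers. The intervals of Phgdh, Atf4, Shmt2, Aldh1l2 and Pycr1 held 0.

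The serine synthesis enzymes varied widely within groups. Phgdh (chr3:98313170-98339990, minus strand), which commits a glycolytic intermediate to serine, had 4.90, 1.74, 2.97 and 8.76 CPM in R502W mavacamten, 8.10, 5.50, 1.97 and 4.35 CPM in R502W control, and 1.76, 32.5, 10.9, 5.72 and 2.84 CPM in WT control. Psat1 (chr19:15904678-15947337, minus strand), the transaminase of the next step, had 5.74, 2.57, 2.69 and 5.30 CPM in R502W mavacamten, 7.25, 4.95, 4.33 and 5.23 CPM in R502W control, and 3.96, 17.8, 7.42, 5.04 and 5.17 CPM in WT control. WT control replicate 2 was highest for both, and all groups overlapped. The 4 libraries with adipocyte markers of 247 to 329 CPM were the 4 with the most Phgdh, at 8.10 to 32.5 CPM against 1.74 to 5.72 CPM in the other 9. They held 3 of the 4 highest Psat1 values, at 5.30 to 17.8 CPM against 2.57 to 5.74 CPM in the others. The genotype differences over all libraries were -1.12 ± 0.73 for Phgdh (95% interval -2.68 to 0.45, edgeR adjusted p 0.332) and -0.54 ± 0.41 for Psat1 (95% interval -1.41 to 0.33, adjusted p 0.407). Without those 4 libraries, chosen after the data were seen, the log2 differences were 0.15 for Phgdh and 0.0050 for Psat1, and without WT control replicate 2 alone they were -0.14 and -0.031. WT control replicates 2 and 3, highest for both genes, also held the most airway markers. The part of fat, of airway, and of the T cell and thymus tissue of WT control replicate 2 in these levels was not tested.

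**Figure D3:**
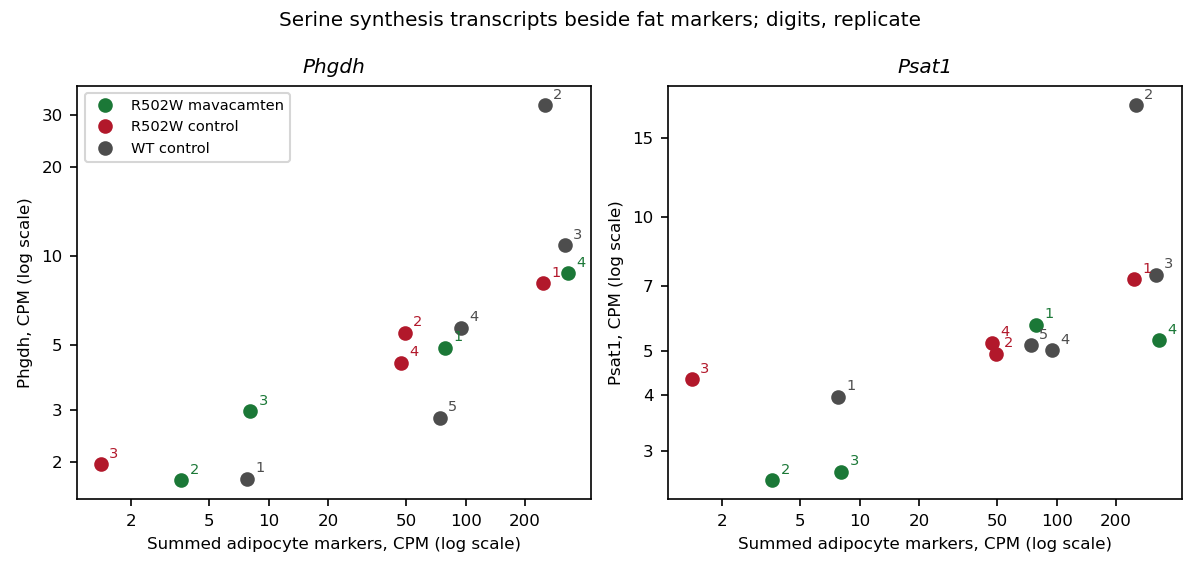
Level of Phgdh (left) and Psat1 (right) in each of the 13 libraries (vertical axes, CPM, log scale) beside the summed level of 4 adipocyte markers (horizontal axes, CPM, log scale), coloured by group with the replicate number at each point. The 4 libraries to the right, at 247 to 329 CPM of markers, hold the 4 highest Phgdh levels, with WT control replicate 2 at 32.5 CPM on top.

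Levels between genes can be set side by side only per length, here as mean CPM per kilobase of exon. The length counts every annotated exon of a gene, whether or not its transcripts in these hearts used it. Close places in the order are therefore uncertain. Atf5 and Atf4 led, at 25.8 and 22.3 CPM per kilobase in R502W mavacamten, 32.5 and 24.3 in R502W control, and 24.3 and 23.3 in WT control. Shmt2 followed at 11.0 CPM per kilobase in R502W mavacamten, 11.5 CPM per kilobase in R502W control and 12.2 CPM per kilobase in WT control. All other genes of the set were below 5 CPM per kilobase in each group. In R502W control the lower part of the order was Aldh1l2 at 2.42, Mthfd2 at 2.32, Phgdh at 2.00, Gdf15 at 1.77, Psat1 at 1.28, Pycr1 at 0.56 and Mthfd1l at 0.22 CPM per kilobase. In WT control it was Phgdh at 4.32, Aldh1l2 at 2.23, Psat1 at 1.85, Mthfd2 at 0.74, Mthfd1l at 0.68, Pycr1 at 0.45 and Gdf15 at 0.28 CPM per kilobase. In WT control, single libraries ran from 0.71 to 13.1 CPM per kilobase for Phgdh and from 0.93 to 4.19 CPM per kilobase for Psat1, both highest in replicate 2. The places of these genes without the libraries with fat and thymus markers were not tested.

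Of 31 other enzymes and carriers of folate, serine, glycine and proline metabolism, 30 were tested (Gldc had too few counts), and 2 rose and none fell in R502W control against WT control by the edgeR test. Among all genes tested, 8.63% rose and 3.75% fell. Aldh18a1, which starts mitochondrial proline synthesis upstream of Pycr1, averaged 12.4 ± 0.16 CPM in R502W mavacamten, 15.3 ± 1.87 CPM in R502W control and 10.9 ± 1.49 CPM in WT control (SD, n = 4, 4 and 5), and rose by 0.48 ± 0.11 in R502W control (edgeR adjusted p 0.0146). The median log2 fold change over the list was -0.13. Psph, which completes serine synthesis after Psat1, averaged 4.46 ± 1.03 CPM in R502W mavacamten, 4.74 ± 1.05 CPM in R502W control and 5.31 ± 1.15 CPM in WT control. Mthfd1, the cytosolic counterpart of the mitochondrial folate enzymes, averaged 25.5 ± 2.77 CPM in R502W mavacamten, 29.5 ± 1.64 CPM in R502W control and 26.9 ± 2.23 CPM in WT control, and neither gene passed the test. In R502W mavacamten against WT control 1 of the 30 rose and none fell, beside 5.93% and 2.29% of all genes tested. The call for Aldh18a1 in R502W control was lost without R502W control replicate 2 (0.43) or 3 (0.41) and without the libraries of low Bmp10 (0.53, adjusted p 0.055). None of the list was called in R502W control without R502W control replicate 2 or without the libraries of low Bmp10.

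Of 36 sensors, regulators and known targets of the integrated stress response, 34 were tested, and 7 rose and none fell in R502W control against WT control. They were the aminoacyl-tRNA synthetase genes Aars, Eprs, Nars and Cars, the amino acid transporter gene Slc7a5, the phosphatase subunit gene Ppp1r15a and the mTOR inhibitor gene Ddit4. Slc7a5 averaged 8.04 ± 1.80 CPM in R502W mavacamten, 10.3 ± 0.72 CPM in R502W control and 6.36 ± 0.88 CPM in WT control (SD, n = 4, 4 and 5), and rose by 0.69 ± 0.15 in R502W control (edgeR adjusted p 0.00929). Eprs rose by 0.48 ± 0.09 (adjusted p 0.00463) and Aars by 0.39 ± 0.07 (adjusted p 0.00407). Ppp1r15a, which reverses the phosphorylation of the initiation factor eIF2, rose by 0.54 ± 0.13 (adjusted p 0.0182). The median over the list was 0.05, with a range of -0.64 to 1.19. Among all genes tested, 8.63% rose and 3.75% fell in R502W control against WT control. In R502W mavacamten against WT control, Aars and Eprs were the 2 of 34 that rose, by 0.27 ± 0.07 (adjusted p 0.0318) and 0.37 ± 0.09 (adjusted p 0.0264). Of all genes tested, 5.93% rose in that comparison. With a trend on gene length removed, Eprs was at 0.07 (adjusted p 0.589) and Aars at 0.18 (adjusted p 0.18) in R502W control against WT control, so both calls were lost. The calls in R502W mavacamten were lost for Aars in 8 and for Eprs in 5 of the 13 leave-one-out fits, and that of Ppp1r15a in R502W control without replicate 1 or 2.

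Other genes known from the same response did not pass, and the following were chosen after their values were seen. Trib3, a pseudokinase and ATF4 target, averaged 3.15 ± 0.67 CPM in R502W mavacamten, 3.92 ± 0.58 CPM in R502W control and 2.76 ± 0.65 CPM in WT control, with a genotype difference of 0.51 ± 0.22 (edgeR adjusted p 0.135). Ddit3, which encodes CHOP, was at 11.6 ± 0.64 CPM in R502W mavacamten, 12.3 ± 1.59 CPM in R502W control and 12.1 ± 1.64 CPM in WT control, with a genotype difference of 0.03 (adjusted p 0.899). Asns, the asparagine synthetase gene, was at 4.12 ± 2.77 CPM in R502W mavacamten, 4.91 ± 1.73 CPM in R502W control and 4.27 ± 1.96 CPM in WT control. Atf3 had the largest log2 fold change of the list, 1.19 ± 0.58 (adjusted p 0.194), with means of 8.59 ± 9.65 CPM in R502W mavacamten, 10.6 ± 5.93 CPM in R502W control and 4.63 ± 1.42 CPM in WT control. Dele1 and Eif2ak1, which relay mitochondrial stress to eIF2, averaged 137 ± 22.8 and 37.5 ± 2.66 CPM in R502W mavacamten, 133 ± 7.23 and 36.7 ± 1.07 CPM in R502W control, and 136 ± 13.6 and 37.9 ± 1.07 CPM in WT control. Fgf21 and Slc7a11 had too few counts to be tested.

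All 14 genes listed as mitochondrial chaperones and proteases were tested, and 2 rose in R502W control against WT control: Afg3l2, an inner membrane protease subunit, by 0.36 ± 0.08 (edgeR adjusted p 0.0149) and Grpel2, a chaperone cofactor, by 0.38 ± 0.10 (adjusted p 0.0286). Hspd1, the chaperonin of the matrix, averaged 273 ± 19.6 CPM in R502W mavacamten, 283 ± 14.6 CPM in R502W control and 272 ± 34.6 CPM in WT control, and did not pass. The median over these 14 genes was 0.04, and none was called in R502W mavacamten against WT control. Among all genes tested, 8.63% rose and 3.75% fell in R502W control against WT control, and 8.21% were called in R502W mavacamten against WT control. The Afg3l2 call was lost without R502W control replicate 2 or 3, and that of Grpel2 in 8 of the 13 leave-one-out fits. With the trend on gene length removed, Afg3l2 was at 0.14 (adjusted p 0.297) and Grpel2 at 0.26 (adjusted p 0.121), and none of the 14 was called there, with the replicate block, or without the low-Bmp10 or the high-adipocyte libraries.

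The receptor of GDF15 was not detected in these hearts. Gfral had 0 counts in all 13 libraries, which allows up to 3 counts, or 0.155 to 0.22 CPM per library, for counting error alone. Ret, its co-receptor, averaged 4.26 ± 2.19 CPM in R502W mavacamten, 4.50 ± 1.59 CPM in R502W control and 4.60 ± 0.79 CPM in WT control. Furin, a protease of the group that cleaves the GDF15 precursor, averaged 96.4 ± 5.57 CPM in R502W mavacamten, 103.8 ± 5.47 CPM in R502W control and 81.9 ± 6.98 CPM in WT control, and rose by 0.34 ± 0.08 in R502W control (edgeR adjusted p 0.0126). It was 1 of the 4 tested genes of a list of 5 that passed in that comparison, and none passed in R502W mavacamten against WT control. Among all genes tested, 12.4% passed in the former comparison and 8.21% in the latter. The Furin call was lost without R502W control replicate 2, with the trend on gene length removed (0.15, adjusted p 0.20), with the replicate block and without the low-Bmp10 libraries. In the treatment comparison no gene of any of the 4 lists was called, and the list medians were -0.02, -0.10, -0.03 and -0.10 for the metabolic enzymes, the stress response, the mitochondrial chaperones and the GDF15 receptor and processing genes.

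**Figure D4:**
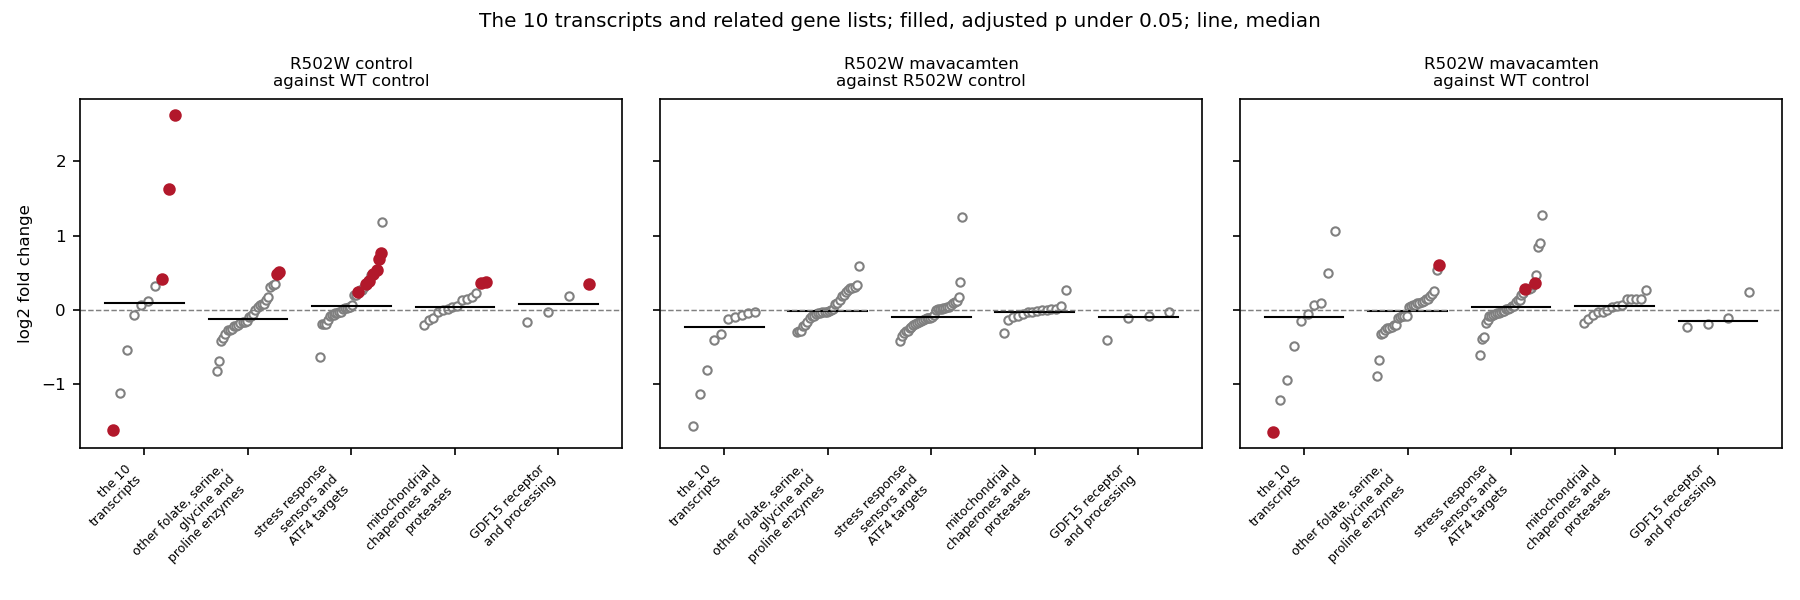
Log2 fold change (edgeR estimate) of each tested gene of the 4 lists and of the 10 transcripts of the set, in the 3 comparisons, with 1 point per gene and a bar at the median. Filled points passed an adjusted p of 0.05; no point is filled in R502W mavacamten against R502W control, and the median of the 10 transcripts there is -0.23.

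The genes whose pattern over the 13 libraries was most like that of Gdf15 were sought among the 13696 genes that averaged 1 CPM or more, by the mean absolute difference between log2 CPM profiles, each centred on its own mean. Among the 5 nearest were Aqp8 at 0.30, Gm47985 at 0.53, Tnfrsf12a at 0.54 and Cnksr1 at 0.57 log2 units. Aqp8, a water channel gene, averaged 2.97 ± 1.64 CPM in R502W mavacamten, 7.53 ± 1.11 CPM in R502W control and 1.82 ± 0.49 CPM in WT control (SD, n = 4, 4 and 5). Tnfrsf12a, which encodes the receptor of the cytokine TWEAK, averaged 41.6 ± 16.2 CPM in R502W mavacamten, 62.3 ± 4.80 CPM in R502W control and 16.7 ± 3.06 CPM in WT control. Mthfd2 came at place 23 with a difference of 0.67. These genes were found by their likeness over the same libraries, so their group differences are a description and were not tested as a result.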

How the data were processed

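Libraries were poly(A)-selected and strand-specific, made from whole hearts, per the labels' protocols. Expected counts per gene were deposited, which the authors estimated with RSEM on GRCm38, per the submitters' processing notes. These also name cutadapt, FastQC and DESeq2 without versions, and the strand setting is not given in the sources used here. Of its values, 5.76% were fractional.

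Expected counts were rounded and fitted in R 4.3.3 with edgeR 4.0.16: filterByExpr (minimum count 10, minimum total 15), which left 15000 genes, TMM scaling, a quasi-likelihood fit with 1 mean per group over all 13 libraries, and Benjamini-Hochberg adjustment over all genes tested, at a threshold of 0.05. The biological coefficient of variation was 0.232. SE is the absolute log2 fold change over the square root of the F statistic, and 95% intervals are unadjusted. Intervals and floors for single libraries cover counting error only. The test was run on simulated counts with the same spread for every gene, changes in R502W control only and no differences in tissue content. That does not show how it performs on these libraries. Chi-square per degree of freedom between libraries of a group was 7.31 to 103.3 over 22 pairs, more than counting error alone gives. R502W mavacamten replicate 1 was at 95.6 to 103.3 against the rest of its group. These values are not a measure of quality, and all 13 libraries were kept. Coordinates, exonic lengths and symbols came from GENCODE M21 by gene ID. Of the 2 IDs with the symbol Ddit3, the one with the longer exons was used.

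The 10 genes, the lists and the markers were chosen with earlier results of these data known. Genes named are the 10, up to 4 called genes of each list and comparison with the smallest adjusted p, and the 5 most like Gdf15; others were named after their values were seen. Not every gene picked by the rule is reported here. Alternatives were DESeq2 1.42.0, other scaling factors, no count filter, fits of 2 groups, the replicate number as a block, removal of a trend on gene length, and leaving out libraries singly or, for those with low Bmp10, T cell or interferon genes, or high adipocyte markers, together.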

Additional observations from a re-analysis of the deposited data

Results flagged for a closer look

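In groups of 4 or 5 libraries, a library was singled out where its gap to the nearest other, over the group's range, passed Dixon's 95% value. Chance does this in about 1 in 20 groups. It happened in 2 of 30 groups of the 10 transcripts and in 3 of 27 groups of summed markers.

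Atf5 was at 74.6 CPM in R502W control replicate 3, with 60.7 to 61.9 CPM in the other 3 libraries of that group, and the call for Atf5 against WT control was lost without that library. Psat1 was at 17.8 CPM in WT control replicate 2, with 3.96 to 7.42 CPM in the other 4. The same library held 303.6 CPM of T cell and thymus markers and 88.0 CPM of cycling cell markers, with 7.70 to 13.9 CPM of cycling markers in the other WT control libraries. Airway markers (Scgb1a1, Cyp2f2 and Sftpc) summed to 138.6 CPM in R502W mavacamten replicate 1, with 2.45 to 22.2 CPM in the other 3 libraries of that group, while WT control replicates 2 and 3 held 353 and 556 CPM.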

How the results depend on the processing

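Gdf15 and Mthfd2 kept their genotype call under all alternatives (log2 2.39 to 3.03 and 1.61 to 1.92, edgeR adjusted p at most 0.027 and 0.0275; leave-one-out fits as in the text). The replicate number did not pair libraries: 1 of 12 same-number pairs had a correlation of deviations over 0.1, and 0 libraries correlated best with their own number. In R502W control against WT control, called genes went to 963 with the replicate block, 404 without the low-Bmp10 libraries, 1145 without the high-adipocyte libraries and 866 to 1870 in leave-one-out fits (1040, 866 and 914 without R502W control 1, 2 and 3), beside 1856. The called transcripts of the set went from 4 to 2 without the low-Bmp10 or the high-adipocyte libraries and to 2 to 4 in leave-one-out fits, 2 without R502W control 3. In R502W mavacamten against R502W control, DESeq2 called 6 genes beside 0, and leave-one-out fits 0 to 0 genes and 0 to 0 of the set. In R502W mavacamten against WT control, beside 1232 genes, no filter gave 740, the 2-group fit 216, the replicate block 349, removal of the length trend 632, leaving out low-Bmp10 libraries 86 and high-adipocyte libraries 653, and leave-one-out fits 359 to 1213. Without WT control 3 it was 688, without R502W control 2 716, and without R502W mavacamten 1, 2, 3 and 4 681, 359, 462 and 692. The single call of the set there, Mthfd1l, went to 0 in the 2-group fit and without the low-Bmp10 or high-adipocyte libraries, and to 0 to 1 in leave-one-out fits. Atf5 lost its genotype call, at a log2 fold change of 0.40 to 0.47, with no filter (adjusted p 0.0521), with the replicate block (0.0627), and without the low-Bmp10 (0.0701) or high-adipocyte (0.0633) libraries.

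Signs turned for genes past no threshold, and for Eprs in R502W mavacamten against WT control, which had passed it. Aldh1l2 went to -0.015 with the length trend removed or without high-adipocyte libraries, -0.053 without the library high in T cell genes and that high in interferon genes, and -0.052 to 0.20 in leave-one-out fits (R502W control against WT control); to -0.22 to 0.082 in leave-one-out fits (R502W mavacamten against R502W control); and to -0.060, -0.067, -0.069, -0.030 and -0.13 to 0.17 (R502W mavacamten against WT control: length, low Bmp10, T cell and interferon, adipocyte, leave-one-out). In R502W control against WT control, Phgdh and Psat1 went to 0.15 and 0.0050 without high-adipocyte libraries, and Ddit3 to -0.028 to 0.11 in leave-one-out fits. With mavacamten against R502W control, Mthfd1l went to 0.037 with the replicate block (leave-one-out -0.18 to 0.29) and Phgdh to 0.40 without low-Bmp10 libraries (leave-one-out -0.62 to 0.23), so the 10 did not share a downward sign in those fits. Against WT control, Atf4 went to 0.053 and Eprs, which had been called, to -0.032 with the length trend removed, and Atf5 to -0.021 to 0.16 in leave-one-out fits. Called genes of the stress response list in R502W control went from 7 to 3 with the block, 1 without low-Bmp10 and 4 without high-adipocyte libraries. The causes were not tested, beyond the fewer libraries or genes that some fits hold. Some libraries held under 20 expected counts of Gdf15 and Pycr1 (WT control and R502W mavacamten), Mthfd1l (both R502W groups) and Mthfd2 (WT control), which limits these genes.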

Other observations

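Wars, a tryptophanyl-tRNA synthetase gene, was named after its values were seen. It ran from 43.8 to 297 CPM in R502W mavacamten, from 40.1 to 50.4 CPM in R502W control and from 41.1 to 48.8 CPM in WT control, with a log2 fold change of 1.25 in R502W mavacamten against R502W control that was not called by edgeR. R502W mavacamten replicate 4 was the library left out as high in interferon genes, and its part in the spread of Wars was not tested. Of the 4 cytosolic relatives of Wars that rose in R502W control, Nars averaged 69.5 ± 1.52 CPM in R502W mavacamten, 78.9 ± 4.10 CPM in R502W control and 67.1 ± 2.87 CPM in WT control. Ddit4 averaged 13.6 ± 4.35 CPM in R502W mavacamten, 16.6 ± 2.95 CPM in R502W control and 9.74 ± 2.02 CPM in WT control.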
